A study of Mus musculus with 18 samples.

Results

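Hyaluronan synthesis and the large chondroitin proteoglycans were followed through 8 genes of the 24514 in the deposited count table. The genes were chosen by name, with earlier results of these data known: the hyaluronan synthases Has1, Has2 and Has3, the hyaluronan receptor Cd44, the chondroitin sulfate proteoglycan core proteins Vcan, Acan and Cspg4, and the hyaluronan-modifying protein Tnfaip6. All 8 were found and all 8 passed the filter on low counts, Acan only through its day 3 libraries. They were measured by poly-A RNA sequencing in iMGT-Myh6-eGFP-MEF, a line of mouse embryonic fibroblasts in which doxycycline switches on the cardiac transcription factors Mef2c, Gata4 and Tbx5, and which also holds a green fluorescent reporter driven by Myh6. The 6 groups, of 3 biological replicates each, were cells given siRNA against Chst7 (siChst7) or control siRNA (siControl) at day 0, day 1 and day 3. Wells of 384-well plates received 1000 cells each and the siRNA, and doxycycline at 1 µg/mL was added on the next day, named day 0, except in the day 0 samples, which received none. Each sample pooled 40 wells. All groups came from 1 line with the same inducible factors, so the siControl groups at days 1 and 3 were themselves under reprogramming, and time in culture and doxycycline cannot be told apart.

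Hyaluronan is a long sugar polymer without sulfate that synthases in the plasma membrane extrude into the space around the cell, from the sugar nucleotides UDP-glucuronic acid and UDP-N-acetylglucosamine. Cells bind it through CD44, and the lecticans versican and aggrecan, whose core proteins carry chondroitin sulfate chains, bind along it to build a hydrated coat. TSG-6, the product of Tnfaip6, transfers heavy chains of inter-alpha-inhibitor onto hyaluronan and is induced in inflammation. CSPG4, also called NG2, is a transmembrane chondroitin sulfate proteoglycan that does not belong to the lecticans. In the embryonic heart, Has2 and versican are needed to form the cardiac jelly and the cushions from which valves arise. Chst7 encodes a sulfotransferase of chondroitin chains and is not itself one of the 8 genes.

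Libraries held 30590742 to 50021142 counts. Chst7 was at 0.238, 0.611 and 0.465 CPM (counts scaled to the library total) in siChst7 cells, against 19.7, 18.6 and 19.2 CPM in siControl cells, at day 0, and was lower by 5.47 ± 0.18, 5.65 ± 0.17 and 3.54 ± 0.15 on the log2 scale (SE, edgeR adjusted p at most 7.07e-13) at days 0, 1 and 3. Levels in CPM were computed on library totals scaled with the trimmed mean of M values (TMM). Between replicates, a chi-square per degree of freedom over genes was highest in the siChst7 day 3 group. It was 59.2 and 51.4 there for replicate 2 against replicates 1 and 3, and 22.6 between replicates 1 and 3. Replicate 2 of that group thus stood furthest apart. The value was 15.2 to 15.6 where siChst7 day 0 replicate 3 entered, against 2.96 to 5.48 for the other pairs. The ribosomal RNA gene Rn45s took 1.96% of counts in siChst7 day 3 replicate 1, against 0.131 to 0.654% in the other 17 libraries. Summed fibroblast markers stood at 10100 to 10800 CPM in siChst7 and 10900 to 11500 CPM in siControl libraries at day 3, while summed cardiomyocyte markers stood at 1410 to 1930 CPM in siChst7 and 1120 to 1180 CPM in siControl libraries there. At day 0 the cardiomyocyte sums were 24.6 to 25.4 CPM in siChst7 and 13.1 to 14.7 CPM in siControl libraries. The fibroblast sums at day 0 were 8660 to 9250 CPM in siChst7 and 9130 to 9460 CPM in siControl libraries. Fibroblast markers did not move as one: from day 0 to day 3 in siChst7 cells Vim rose by 0.77 ± 0.04 and Col3a1 fell by 2.76 ± 0.09 (log2, SE). The fibroblast marker Thy1 was at or near 0 in every group. In these bulk samples, fewer cells of a type and less RNA per cell cannot be told apart.

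**Figure D1:**
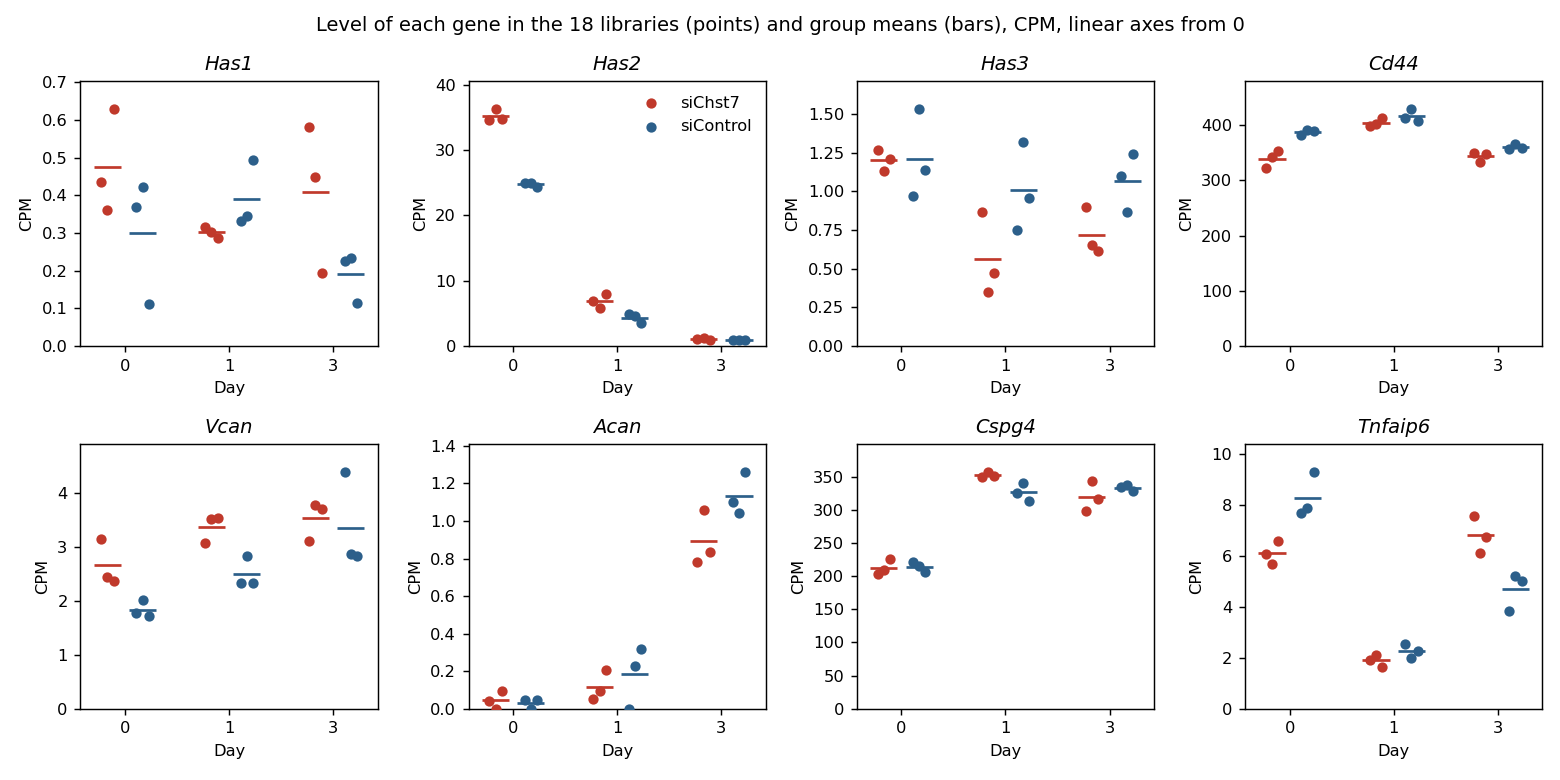
Levels of the 8 genes in CPM (linear axes from 0) in each of the 18 libraries at days 0, 1 and 3, with siChst7 left of siControl at each day; points are libraries and bars are means of 3. Has2 drops at each later day in both siRNA groups, Acan is near 0 until day 3, and Tnfaip6 at day 3 lies above siControl in every siChst7 library.

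Promoter sequences are shown for 3 genes of unlike course. Tnfaip6 alone of the 8 was called for a change of its knockdown effect between days. Acan was almost silent until day 3, and Cspg4 was abundant in every group. The sequences come from RefSeq (GRCm38.p6, 250 bases before to 50 bases after the start, 5′ to 3′ on the gene's strand). The table matched 6 of the 8 genes, all but Has2 and Has3. Capitals mark a match to a searched motif.
Tnfaip6, chr2:52037863-52038162, plus strand: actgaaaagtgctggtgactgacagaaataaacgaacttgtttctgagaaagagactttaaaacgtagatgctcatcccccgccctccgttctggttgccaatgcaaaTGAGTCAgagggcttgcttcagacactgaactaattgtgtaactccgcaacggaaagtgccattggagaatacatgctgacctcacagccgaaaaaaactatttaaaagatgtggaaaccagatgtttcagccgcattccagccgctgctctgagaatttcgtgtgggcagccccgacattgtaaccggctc
Acan, chr7:79052976-79053275, plus strand: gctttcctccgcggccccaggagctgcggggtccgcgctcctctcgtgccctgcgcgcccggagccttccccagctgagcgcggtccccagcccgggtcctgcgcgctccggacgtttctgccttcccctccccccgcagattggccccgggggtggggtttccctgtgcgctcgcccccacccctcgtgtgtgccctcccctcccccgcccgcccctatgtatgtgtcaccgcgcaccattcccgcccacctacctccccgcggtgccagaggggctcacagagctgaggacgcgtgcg
Cspg4, chr9:56864854-56865153, plus strand: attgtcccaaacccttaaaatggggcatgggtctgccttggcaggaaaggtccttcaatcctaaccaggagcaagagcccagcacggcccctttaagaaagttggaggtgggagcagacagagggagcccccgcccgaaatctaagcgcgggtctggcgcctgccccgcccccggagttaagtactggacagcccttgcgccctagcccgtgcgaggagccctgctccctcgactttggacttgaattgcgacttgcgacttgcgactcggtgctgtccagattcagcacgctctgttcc
Motifs were searched in all 32851 promoters of the same length. The AP-1 motif TGANTCA was found in 7.81% of these, on either strand. The GATA motif AGATAA was found in 11.2% and the T-box motif, whose letters are AGGTGT, in 13.7%, also on either strand. The MEF2 motif, CTA and then TAG with 4 free bases between, was found on either strand in 3.69%, and the NF-kB motif, GGG and then TTTCC with 2 free bases between, in 1.63%. The TATA box, TATAAA on the gene's strand alone, was found in 8.32%. No matches overlapped in the 6 promoters. In the Tnfaip6 window the AP-1 letters read TGAGTCA, with the first base 142 bases before the start. The windows of Acan and Cspg4 held none of the 6 motifs, and the GC content was 47% for Tnfaip6, 74% for Acan and 60% for Cspg4. Among the other matched genes, Has1, Cd44 and Vcan, only the Cd44 window held a match, AGATAA, with its first base 233 bases before the start.

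Between siChst7 and siControl cells, 4 of the 8 genes were called at day 0 and 1 of the 8 at each of days 1 and 3. Calls rest on 1 edgeR quasi-likelihood fit of all 18 libraries and need a Benjamini-Hochberg adjusted p below 0.05 over the 13802 genes that passed the filter. At day 0 the background was 27.4% of all genes tested. Of the 4 called genes, Has2 and Vcan were higher in siChst7 cells (background 13.9%), and Cd44 and Tnfaip6 were lower (background 13.5%). At day 1 the called gene was Has2, which was higher, against 17.6% of all genes, with 8.86% of all genes higher and 8.72% lower. At day 3 it was Tnfaip6, which was higher, against 44.7% of all genes, 23.1% higher and 21.6% lower, a balance that turned to more lower than higher genes under other scalings, other filters and DESeq2. The median log2 fold change of the 8 genes was 0.24, -0.14 and 0.01 at days 0, 1 and 3, beside 0.01 over all genes at each day.

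**Figure D2:**
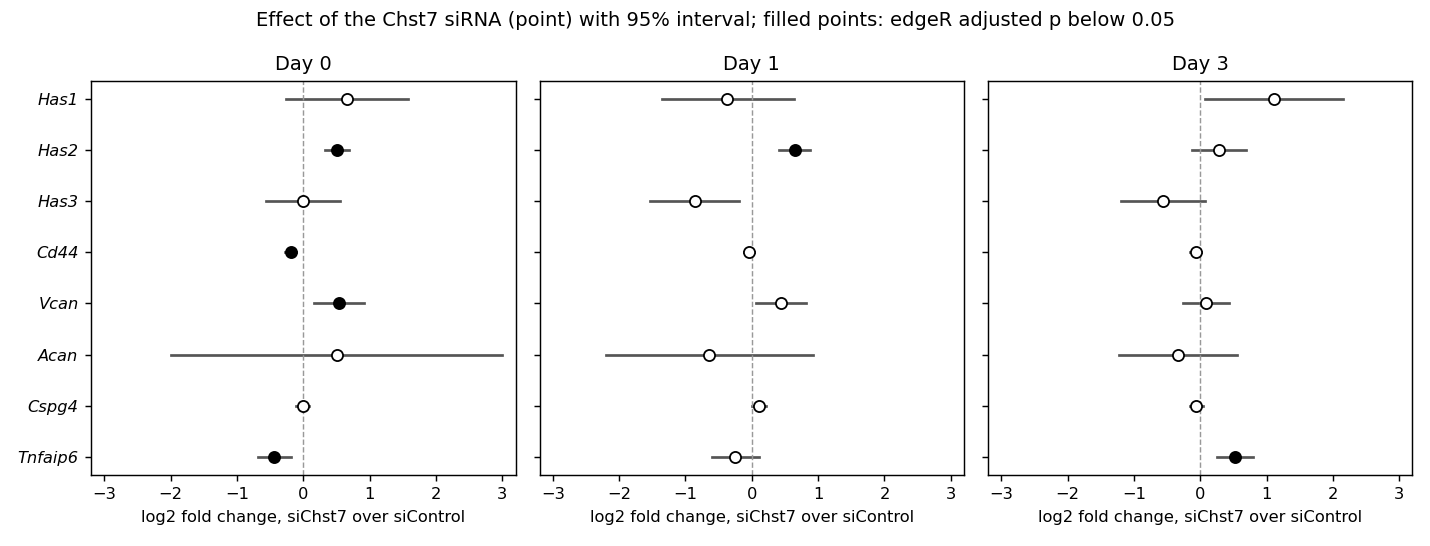
Log2 fold change of siChst7 over siControl for each of the 8 genes at days 0, 1 and 3, with 95% intervals from the edgeR fit; filled points passed an adjusted p of 0.05. Has2 is higher at days 0 and 1, and Tnfaip6 is lower at day 0 and higher at day 3.

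Each comparison over time called 4 to 6 of the 8 genes, against 1 to 4 of 8 after knockdown. In siChst7 cells, day 1 over day 0 called 5 of 8 (background 60.0%), 2 higher (29.5%) and 3 lower (30.5%), with a median of -0.19 for the 8 and -0.01 for all genes. Day 3 over day 1 in siChst7 cells called 5 of 8 (65.2%), 2 higher (31.7%) and 3 lower (33.5%), with medians of 0.22 and 0.01. Day 3 over day 0 in siChst7 cells called 5 of 8 (75.7%), 3 higher (37.9%) and 2 lower (37.8%), with medians of 0.09 and 0.01. The same 3 steps in siControl cells gave like counts. Day 1 over day 0 in siControl cells called 6 of 8 (60.3%), 4 higher (29.5%) and 2 lower (30.8%), with a median of 0.24 for the 8 and 0 for all genes. Day 3 over day 1 in siControl cells called 4 of 8 (55.2%), 2 higher (22.8%) and 2 lower (32.3%), with medians of 0.05 and -0.05. Day 3 over day 0 in siControl cells called 6 of 8 (73.4%), 3 higher (33.9%) and 3 lower (39.5%), with medians of -0.14 and -0.05. Acan, which passed the filter only through its day 3 libraries, is counted with that limit. These counts lie near the backgrounds, so what follows describes single genes and makes no statement on the 8 as a set.

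**Figure D3:**
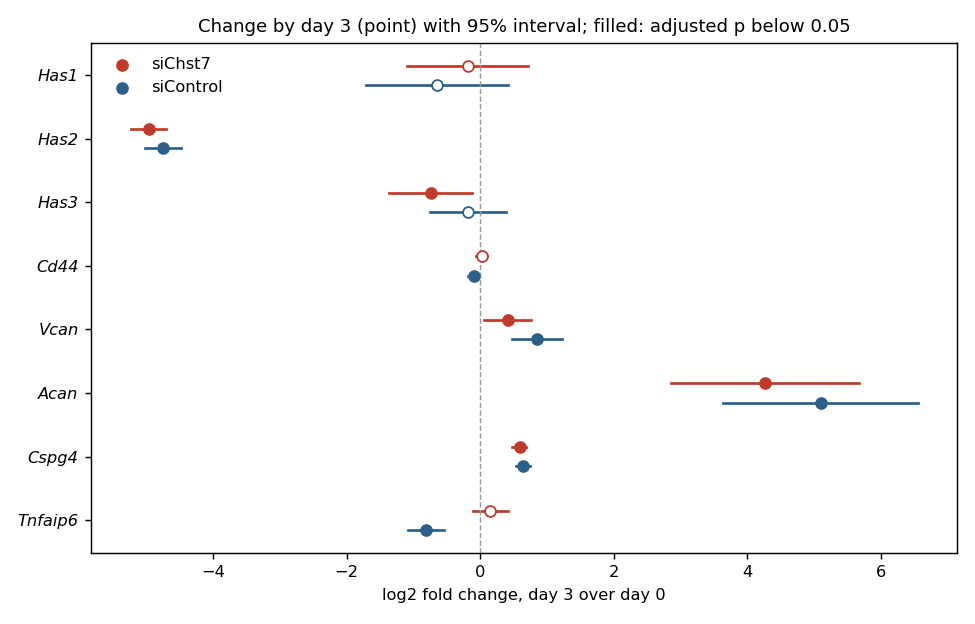
Log2 fold change of day 3 over day 0 for each of the 8 genes, siChst7 above siControl, with 95% intervals from the edgeR fit; filled points passed an adjusted p of 0.05. Has2 fell most and Acan, which passed the filter only through its day 3 libraries, rose most in both siRNA groups.

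Has2, the main hyaluronan synthase of embryonic mesenchyme, lies on chromosome 15 (56665627 to 56694546, GRCm38.p6). Of the 3 synthases it had the highest mean level per length in every group and the largest change between day 0 and day 3. At day 0 it measured 34.6, 36.2 and 34.7 CPM in siChst7 cells and 24.9, 25.0 and 24.4 CPM in siControl cells. At day 1 the siChst7 libraries held 6.83, 5.75 and 7.93 CPM, against 4.94, 4.63 and 3.52 CPM in siControl libraries. By day 3 the siChst7 libraries were at 1.13, 1.19 and 0.998 CPM and the siControl libraries at 0.960, 0.890 and 0.918 CPM. The siChst7 and siControl libraries did not overlap on any day, and no library of a later day reached any library of an earlier day.

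In the edgeR fit, Has2 was 1.42-fold higher in siChst7 cells at day 0 (log2 fold change 0.51 ± 0.09, SE, adjusted p = 0.000116) and 1.56-fold higher at day 1 (0.65 ± 0.12, adjusted p = 0.000367). At day 3 the difference was 0.28 ± 0.20, with a 95% interval of -0.13 to 0.69, and did not pass the edgeR test (adjusted p = 0.271), although the groups did not overlap. Only 123 counts in siChst7 and 116 counts in siControl libraries stood behind that value. The knockdown effect on Has2 was not shown to differ between days: the difference of effects was 0.14 ± 0.14 for day 1 minus day 0, -0.37 ± 0.23 for day 3 minus day 1 and -0.23 ± 0.22 for day 3 minus day 0. In edgeR these gave adjusted p of 0.603, 0.255 and 0.444. Without siChst7 day 0 replicate 3, the library that stood apart at day 0, the day 0 effect was 0.52 (edgeR adjusted p = 0.000574).

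With time, Has2 fell in both siRNA groups. From day 0 to day 3 it fell by 4.97 ± 0.13 on the log2 scale in siChst7 cells (31.4-fold, edgeR adjusted p = 2.94e-19) and by 4.75 ± 0.13 in siControl cells (26.8-fold, edgeR adjusted p = 8.64e-19). The fall was split over both steps: 2.37 ± 0.10 by day 1 and a further 2.61 ± 0.14 by day 3 in siChst7 cells, and 2.51 ± 0.11 and then 2.24 ± 0.16 in siControl cells. All of these steps passed the edgeR test, the largest adjusted p being 6.1e-11. The antisense gene Has2os overlaps Has2 (chromosome 15, 56689944 to 56694460) and held 0 to 6 counts per library. Since the strand setting of the counting is not given in the sources used here, reads of that overlap cannot be told apart, and their number was not measured.

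Has1 (chromosome 17, 17833691 to 17855589) and Has3 (chromosome 8, 106870242 to 106882902), the other 2 synthases, were near the lower limit of measurement. Has1 held 22, 16 and 27 counts in siChst7 and 16, 19 and 5 counts in siControl libraries at day 0, 12, 13 and 11 in siChst7 against 11, 12 and 17 in siControl libraries at day 1, and 20, 20 and 6 in siChst7 against 8, 11 and 5 in siControl libraries at day 3. Its groups overlapped at days 0 and 3, and at day 1 all siChst7 libraries lay below all siControl libraries in CPM. No comparison of Has1 was called by edgeR. The largest knockdown difference was 1.11 ± 0.50 at day 3 (interval 0.07 to 2.15, edgeR adjusted p = 0.077), where siChst7 libraries averaged 0.408 ± 0.197 CPM and siControl libraries 0.191 ± 0.0663 CPM (SD, n = 3 each). Without siChst7 day 3 replicate 3, the lowest siChst7 library, it was 1.36 and passed (edgeR adjusted p = 0.0402).

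Has3 measured 1.27, 1.13 and 1.21 CPM in siChst7 and 0.968, 1.53 and 1.14 CPM in siControl libraries at day 0, where the groups overlapped. At day 1 it measured 0.870, 0.349 and 0.471 CPM in siChst7 cells, against 0.753, 1.32 and 0.960 CPM in siControl cells. At day 3 the values were 0.9, 0.652 and 0.612 CPM in siChst7 cells and 1.10, 0.869 and 1.24 CPM in siControl cells. One siChst7 library overlapped the siControl range at each of days 1 and 3. The day 1 difference was -0.86 ± 0.32 and missed the edgeR threshold (adjusted p = 0.071), but DESeq2 gave an adjusted p of 0.0477, and without siChst7 day 1 replicate 1 it was -1.31 (edgeR adjusted p = 0.0136). Has3 fell by 1.11 ± 0.30 between day 0 and day 1 in siChst7 cells (edgeR adjusted p = 0.00344). In siControl cells the same step was -0.26 ± 0.29 (edgeR adjusted p = 0.456), and the difference between the 2 steps, which is the difference of the knockdown effects at days 1 and 0, was -0.85 ± 0.42 and was not called (edgeR adjusted p = 0.217). By day 3 Has3 was below its day 0 level in siChst7 cells (-0.74 ± 0.30, edgeR adjusted p = 0.029), a call that was lost without siChst7 day 0 replicate 1 or 3 or siChst7 day 3 replicate 2 or 3 (edgeR adjusted p between 0.0529 and 0.0894). In siControl cells the day 3 difference was -0.18 ± 0.28 (edgeR adjusted p = 0.558).

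To set the synthases beside each other, CPM was divided by the gene length of the deposited table (2092 bases for Has1, 4244 for Has2 and 6028 for Has3). On this scale the summed synthase level was 8.71 ± 0.155, 1.85 ± 0.269 and 0.576 ± 0.135 CPM per kb in siChst7 cells at days 0, 1 and 3 and 6.18 ± 0.18, 1.38 ± 0.137 and 0.486 ± 0.027 CPM per kb in siControl cells (SD, n = 3 each). Has2 made up 95.1 ± 0.856% of that sum in siChst7 and 94.5 ± 1.57% in siControl cells at day 0, and 46.6 ± 8.18% in siChst7 and 44.7 ± 0.854% in siControl cells at day 3. At day 1 its share was 87.0 ± 2.58% in siChst7 and 74.0 ± 6.36% in siControl cells, and the libraries of the 2 groups did not overlap, with 84.5 to 89.6% in siChst7 and 67.7 to 80.4% in siControl cells. The shift of the mix went with the fall of Has2, while Has1 and Has3 stayed at or under 0.3 CPM per kb in every library. At day 3, Has1 held 32.4 ± 9.65% and Has3 21.0 ± 2.9% of the sum in siChst7 cells, against 18.8 ± 6.48% and 36.5 ± 6.15% in siControl cells. The Has1 shares overlapped, at 21.5 to 40% in siChst7 and 11.5 to 23.9% in siControl libraries. Those of Has3 did not, at 17.9 to 23.7% in siChst7 and 31 to 43.1% in siControl libraries. Neither gene was called for knockdown at day 3 (edgeR adjusted p = 0.077 for Has1 and 0.139 for Has3). These shares describe RNA, and no test was made on them.

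**Figure D4:**
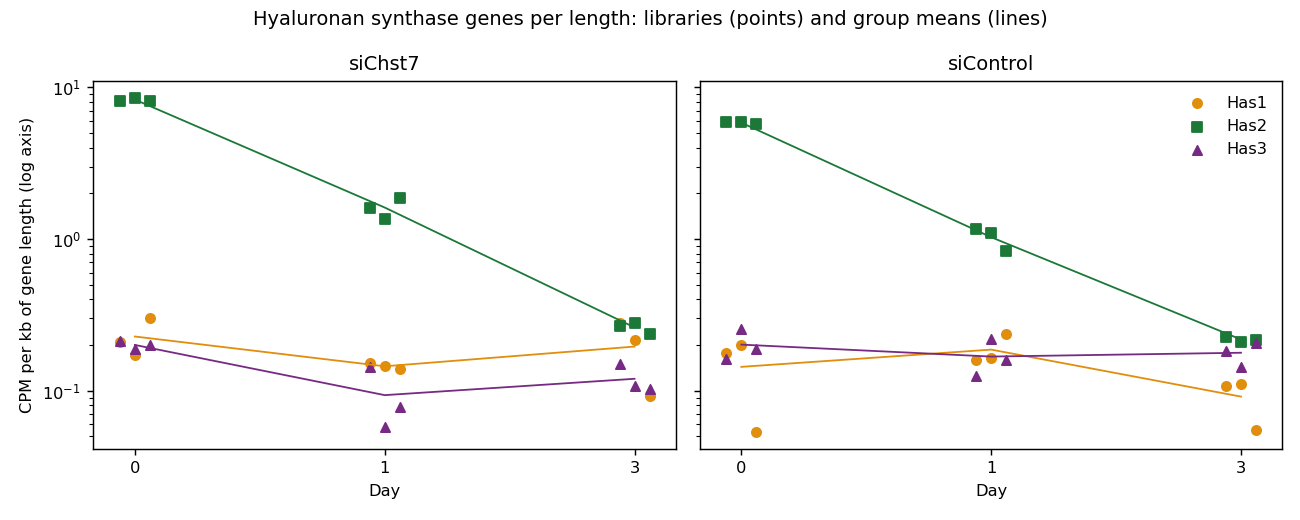
Levels of the 3 hyaluronan synthases in CPM per kb (log axis) at days 0, 1 and 3, siChst7 in the left panel and siControl in the right; points are libraries and lines join the means of 3. Has2 starts more than an order of magnitude above Has1 and Has3 at day 0; at day 3 its libraries overlap those of Has1 in siChst7 cells and lie above all those of Has1 and Has3 in siControl cells.

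Cd44 (chromosome 2, 102811141 to 102901669) encodes the main cell surface receptor for hyaluronan. It was the most abundant of the 8 per length, at 59.9 to 73.6 CPM per kb in group means, above 94.5 to 95.5% of all listed genes. At day 0 it measured 322, 342 and 353 CPM in siChst7 cells and 381, 391 and 389 CPM in siControl cells. Every siChst7 library was below every siControl library there. The decrease was small, -0.19 ± 0.04 (edgeR adjusted p = 0.00063), and was -0.22 (edgeR adjusted p = 0.000246) without siChst7 day 0 replicate 3.

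At day 1 Cd44 was at 398, 402 and 413 CPM in siChst7 and 413, 428 and 407 CPM in siControl cells, and at day 3 at 349, 333 and 347 CPM in siChst7 and 357, 365 and 359 CPM in siControl cells. The groups overlapped at day 1 and lay just apart at day 3. The differences were -0.04 ± 0.04 at day 1 and -0.07 ± 0.04 at day 3 (edgeR adjusted p = 0.515 and 0.136). The day 3 value depended on the scaling, since it was -0.11 to -0.12 and called under scaling by relative log expression (RLE), scaling by library totals, no filter, a stricter filter and DESeq2, and -0.13 without siChst7 day 3 replicate 3 (edgeR adjusted p = 0.0243). Cd44 rose by 0.25 ± 0.04 by day 1 in siChst7 cells and by 0.11 ± 0.04 in siControl cells (edgeR adjusted p = 5.62e-06 and 0.0221), and then fell by 0.24 ± 0.04 in siChst7 cells and by 0.21 ± 0.04 in siControl cells by day 3 (edgeR adjusted p = 1.38e-05 and 9.77e-05). Under scaling by library totals the later fall in siControl cells was -0.06 (edgeR adjusted p = 0.238), and the rise by day 1 in siControl cells was lost with no filter (0.09, edgeR adjusted p = 0.128) or without siControl day 0 replicate 1 (0.0763) or day 1 replicate 2 (0.107). Over the whole course it changed little: 0.02 ± 0.04 in siChst7 cells (edgeR adjusted p = 0.68) and -0.10 ± 0.04 in siControl cells (edgeR adjusted p = 0.023), and the siControl value lost its call under most other settings and turned to 0.05 under scaling by library totals.

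Vcan (chromosome 13, 89655309 to 89743027) encodes versican, the lectican of developing mesenchyme. It was low in these cells. At day 0 it measured 3.15, 2.44 and 2.37 CPM in siChst7 cells and 1.77, 2.01 and 1.72 CPM in siControl cells. At day 1 siChst7 libraries held 3.06, 3.51 and 3.53 CPM and siControl libraries 2.32, 2.82 and 2.33 CPM. The siChst7 libraries were above all siControl libraries on both days. At day 3 the siChst7 values of 3.11, 3.78 and 3.70 CPM lay within the siControl values of 4.38, 2.86 and 2.82 CPM.

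Vcan was 1.45-fold higher in siChst7 cells at day 0 (0.54 ± 0.18, edgeR adjusted p = 0.0301), but that call was lost without siControl day 0 replicate 1 (edgeR adjusted p = 0.0822), siControl day 0 replicate 3 (0.0996) or siChst7 day 0 replicate 1, where the difference was 0.39 (0.174). At day 1 it was 0.44 ± 0.18 (edgeR adjusted p = 0.0986) and at day 3 it was 0.09 ± 0.17 (edgeR adjusted p = 0.704). Between day 0 and day 3 Vcan rose 1.81-fold in siControl cells (0.85 ± 0.18, edgeR adjusted p = 0.000193). In siChst7 cells, which began higher, it rose by 0.41 ± 0.17 (edgeR adjusted p = 0.0366), a call that was lost without siChst7 day 0 replicate 2 or 3 or day 3 replicate 2 or 3 (edgeR adjusted p between 0.0707 and 0.123), or with only the compared libraries in the fit (0.0533). The rise to day 1 in siControl cells was 0.44 ± 0.19 (edgeR adjusted p = 0.0493), a call lost under 8 alternatives, with the weakest value, 0.34, without siControl day 1 replicate 2 (edgeR adjusted p = 0.186). From day 1 to day 3 Vcan stood at 0.42 ± 0.18 in siControl cells (edgeR adjusted p = 0.0521) and was called under each other scaling (0.48 to 0.56), and in siChst7 cells at 0.07 ± 0.17 (edgeR adjusted p = 0.739). The difference between the siRNA groups in these courses was not called for any pair of days.

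Acan (chromosome 7, 79053226 to 79115099) encodes aggrecan, the lectican of cartilage. It was almost silent at first and appeared by day 3. At day 0 the libraries held 2, 0 and 4 counts in siChst7 cells and 2, 0 and 2 counts in siControl cells, and at day 1 they held 2, 4 and 8 counts in siChst7 cells and 0, 8 and 11 in siControl cells. At day 3 they held 27, 47 and 26 counts in siChst7 cells (0.784, 1.06 and 0.837 CPM) and 39, 49 and 55 counts in siControl cells (1.10, 1.04 and 1.26 CPM). Every day 3 library was above every earlier library of either siRNA, and siChst7 and siControl overlapped on each day. The edgeR log2 fold change of day 3 over day 0 was 4.27 ± 0.68 in siChst7 and 5.10 ± 0.70 in siControl cells (adjusted p = 6.48e-06 and 9.89e-07). Acan passed the filter only through its day 3 libraries, so the filter itself favoured this direction. These adjusted p are therefore not used as support for the rise. Because the day 0 counts sum to only 6 in siChst7 and 4 in siControl cells, the ratio of summed counts is given with its 95% interval: 20.9-fold (9.26 to 58.2) in siChst7 and 37.8-fold (14.4 to 141) in siControl cells, which covers counting error only.

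No knockdown difference in Acan was called. It was 0.50 ± 1.20 at day 0, -0.64 ± 0.75 at day 1 and -0.33 ± 0.43 at day 3, and the interval at day 0, from -1.99 to 2.99, leaves large differences in either direction undetectable at this depth. The rise to day 1 in siControl cells, 2.51 ± 0.95, was called by edgeR (adjusted p = 0.0272) although the groups overlapped, and was lost without siControl day 0 replicate 2, day 1 replicate 2 or day 1 replicate 3 (edgeR adjusted p between 0.0784 and 0.169). Of 8 chondrocyte markers in the table, 6 were tested, and between day 0 and day 3 in siControl cells 3 of them rose and 1 fell, against 33.9% of all genes higher and 39.5% lower. Among these Col2a1, the collagen of cartilage, rose by 4.29 on the log2 scale to 2.99 ± 0.387 CPM at day 3, against 0.151 ± 0.0724 CPM at day 0, while Sox9, the transcription factor that specifies chondrocytes, fell by 2.64 to 1.80 ± 0.132 CPM at day 3, against 11.3 ± 1.15 CPM at day 0. The summed level of the 8 was 21.7 to 23.5 CPM at day 3 against 29.2 to 35.4 CPM at day 0 in siChst7 cells, and 15.1 to 17.7 CPM at day 3 against 17.9 to 21.3 CPM at day 0 in siControl cells, with Ucma at 0 in every group. The part of such cells in the rise of Acan was not tested.

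Cspg4 (chromosome 9, 56865104 to 56899870) encodes the NG2 proteoglycan of pericytes, smooth muscle and glial precursors. Its RNA was the most abundant per length among the 3 core protein genes. It took 99.1 to 99.5% of the summed CPM per kb of Vcan, Acan and Cspg4 in every group mean, a share that describes RNA and not protein. At day 0 it measured 204, 209 and 226 CPM in siChst7 and 221, 215 and 206 CPM in siControl cells. At day 1 it was at 349, 357 and 351 CPM in siChst7 and 325, 340 and 314 CPM in siControl cells. At day 3 it was at 298, 343 and 317 CPM in siChst7 and 335, 337 and 328 CPM in siControl cells. All libraries of days 1 and 3 were above all of day 0, and the siRNA groups overlapped at days 0 and 3 but not at day 1.

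Between day 0 and day 1 Cspg4 rose by 0.73 ± 0.05 in siChst7 cells and 0.61 ± 0.05 in siControl cells (edgeR adjusted p = 1.66e-11 and 3.37e-10). Day 3 stood above day 0 by 0.59 ± 0.05 in siChst7 and by 0.64 ± 0.05, or 1.56-fold, in siControl cells (edgeR adjusted p = 3.86e-10 and 8.58e-11). At day 3 it was below its day 1 level in siChst7 cells (-0.14 ± 0.05, edgeR adjusted p = 0.0158), a call that was lost without siChst7 day 3 replicate 1, the library rich in Rn45s (-0.09, edgeR adjusted p = 0.114), without replicate 3 of that group (-0.12, 0.0979), and under library totals (-0.03, 0.609) and other scalings. In siControl cells that step was 0.03 ± 0.05 (edgeR adjusted p = 0.637), and 0.18 under library totals (edgeR adjusted p = 0.0102). Silencing Chst7 gave differences of -0.01 ± 0.05, 0.11 ± 0.05 and -0.06 ± 0.05 at days 0, 1 and 3, none called by edgeR (adjusted p = 0.926, 0.142 and 0.324). With only the day 1 libraries in the fit, the day 1 difference passed (edgeR adjusted p = 0.00867), and without siChst7 day 3 replicate 2 so did the day 3 difference (-0.12, edgeR adjusted p = 0.0226).

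Of 11 pericyte and smooth muscle markers, 7 were tested, and at day 3 over day 0 in siChst7 cells 6 of the 7 were higher and 1 lower (37.9% and 37.8% of all genes), while in siControl cells 6 were higher and 0 lower (33.9% and 39.5%). The exception in both was Pdgfrb, a receptor that marks pericytes and also other mesenchymal cells, which stood at -1.03 ± 0.04 in siChst7 cells, where it was lower (edgeR adjusted p = 3.62e-16), and at -0.03 ± 0.04 in siControl cells (edgeR adjusted p = 0.471). By day 1 Pdgfrb was lower in siChst7 and in siControl cells (-1.04 ± 0.04 and -0.83 ± 0.04), the step at which Cspg4 rose, and Myh11, a smooth muscle myosin, was lower in siChst7 cells (-1.56 ± 0.60, edgeR adjusted p = 0.0296) on 12 counts in all at day 1, against 42 at day 0. The summed level of the markers was 3400 to 4070 CPM at day 3 against 652 to 734 CPM at day 0 in siChst7 cells, and 3200 to 3310 CPM at day 3 against 1390 to 1510 CPM at day 0 in siControl cells. Of the defining pericyte genes, Rgs5, Abcc9, Kcnj8 and Higd1b were at or near 0 in every group. At day 0 the sums of the siRNA groups did not overlap, while Cspg4 differed by -0.01 ± 0.05. The part of these cells in the rise of Cspg4 was not tested.

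Tnfaip6 (chromosome 2, 52038113 to 52056681), whose promoter is printed above, was the gene of the 8 called lower at day 0 and higher at day 3 after knockdown. At day 0 it measured 6.07, 5.70 and 6.60 CPM in siChst7 cells and 7.70, 7.88 and 9.29 CPM in siControl cells. At day 1 it was at 1.93, 2.12 and 1.65 CPM in siChst7 cells and 2.53, 1.98 and 2.27 CPM in siControl cells. At day 3 it was at 7.58, 6.12 and 6.76 CPM in siChst7 cells and 3.84, 5.21 and 5.03 CPM in siControl cells. The siChst7 libraries were all below the siControl libraries at day 0, overlapped them at day 1, and were all above them at day 3.

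Tnfaip6 was lower in siChst7 cells at day 0 (-0.44 ± 0.12, edgeR adjusted p = 0.0105), was -0.25 ± 0.17 at day 1 (edgeR adjusted p = 0.354), and was 1.44-fold higher at day 3 (0.53 ± 0.13, edgeR adjusted p = 0.00243). The day 0 call was lost without siControl day 0 replicate 3 (-0.35, edgeR adjusted p = 0.076) or siChst7 day 0 replicate 2 (-0.39, 0.0503). The day 3 call remained under every alternative run, with values of 0.41 to 0.61, and without siChst7 day 3 replicate 1 it was 0.44 (edgeR adjusted p = 0.0201). The change of the knockdown effect was itself tested: the effect at day 3 exceeded that at day 0 by 0.96 ± 0.18 (edgeR adjusted p = 0.000229) and that at day 1 by 0.77 ± 0.21 (edgeR adjusted p = 0.01). Without siChst7 day 3 replicate 1 these differences were 0.88 and 0.69 (edgeR adjusted p = 0.00114 and 0.0296). With any single library left out they were 0.85 to 1.05 and 0.66 to 0.86 (edgeR adjusted p at most 0.0012 and 0.0345).

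Both siRNA groups shared a dip of Tnfaip6 at day 1. It fell by 1.68 ± 0.15 in siChst7 and by 1.88 ± 0.14 in siControl cells from day 0 (edgeR adjusted p = 1.2e-09 and 1.31e-10), and rose again by 1.84 ± 0.15 in siChst7 and by 1.06 ± 0.15 in siControl cells from day 1 to day 3 (edgeR adjusted p = 4.4e-10 and 2.99e-06). Day 3 was 1.76-fold lower than day 0 in siControl cells (-0.81 ± 0.13, edgeR adjusted p = 6.12e-06), while in siChst7 cells it was at 0.15 ± 0.13 with an interval of -0.11 to 0.42 (edgeR adjusted p = 0.285). Tnfaip6 is short, 1601 bases, with 20.4% of tested genes shorter. Over the 13802 genes tested, the Spearman correlation of gene length with the knockdown log2 fold change was 0.05, -0.07 and -0.33 at days 0, 1 and 3, and its part in the day 3 difference was not tested. Summed macrophage and leukocyte markers were at 26.4 to 30.5 CPM in siChst7 and 28.2 to 30.1 CPM in siControl cells at day 3, with Tyrobp at 0 in both. The RNA of the 3 induced factors, transgene and endogenous reads together, was lower in siChst7 cells at day 3. Mef2c measured 250, 266 and 231 CPM in siChst7 and 326, 321 and 320 CPM in siControl cells. Gata4 averaged 352 ± 24.4 CPM in siChst7 and 451 ± 11.8 CPM in siControl cells (SD, n = 3 each), and Tbx5 591 ± 28.3 CPM in siChst7 and 743 ± 2.96 CPM in siControl cells, and the siRNA groups overlapped for none of the 3. The log2 differences were -0.37 ± 0.05, -0.36 ± 0.05 and -0.33 ± 0.05 (SE, edgeR adjusted p at most 1.1e-05), and their part in the day 3 difference of Tnfaip6 was not tested.

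Across the 3 interaction terms, Tnfaip6 was the only one of the 8 genes called. For day 1 minus day 0, edgeR called 0 of 8, with 1 of 8 at an unadjusted p below 0.05 (Cd44, 0.15 ± 0.05) and 1 of 8 by DESeq2, against a background of 11.7% of all genes, 6.20% with a higher effect and 5.50% with a lower one. The medians were 0.01 for the 8 genes and 0 for all genes. For day 3 minus day 1 it called 1 of 8 (Tnfaip6, background 28.4%, 15.3% higher and 13.1% lower), with medians of 0.13 and 0.01. For day 3 minus day 0 it also called 1 of 8 (38.8%, 20.7% higher and 18.1% lower), with medians of -0.14 and 0.01. Without siChst7 day 0 replicate 3, Cd44 passed for day 1 minus day 0 (0.18, edgeR adjusted p = 0.0298) and for day 3 minus day 0 (0.15, 0.0315), the second also without siChst7 day 3 replicate 2 (0.14, 0.0232). Cspg4 was not called for day 3 minus day 1 (edgeR adjusted p = 0.0717), but passed at -0.21 to -0.23 under RLE scaling, library totals, no filter, a stricter filter and DESeq2, and without siChst7 day 3 replicate 2.

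Per length, Cd44 and Cspg4 held the first and second place in every group, and the lower places were crowded. In siControl cells at day 0 the means ran from Cd44 at 68.4 ± 0.961, through Cspg4 at 26.6 ± 0.955, Has2 at 5.84 ± 0.0781 and Tnfaip6 at 5.18 ± 0.546, to Has3 at 0.201 ± 0.0476, Has1 at 0.144 ± 0.0792, Vcan at 0.125 ± 0.0108 and Acan at 0.00411 ± 0.00356 CPM per kb (SD, n = 3). The libraries of Has2 and Tnfaip6 overlapped there, and so did those of Has1 with Has3 and with Vcan. In siChst7 cells at day 0, Has2 at 8.29 ± 0.205 stood clear of Tnfaip6 at 3.82 ± 0.283 CPM per kb. At day 1, Tnfaip6 already stood above Has2 in siControl cells, at 1.41 ± 0.171 against 1.03 ± 0.176 CPM per kb. In siChst7 cells it was then still below Has2, at 1.18 ± 0.147 against 1.61 ± 0.258 CPM per kb. At day 3, Tnfaip6 held the third place in both, at 4.26 ± 0.458 in siChst7 and 2.93 ± 0.466 in siControl cells. Has2 was at 0.261 ± 0.0234 CPM per kb in siChst7 and 0.217 ± 0.00825 in siControl cells at day 3. Its libraries overlapped those of Vcan, at 0.240 ± 0.025 and 0.228 ± 0.0603 CPM per kb in the same 2 groups.

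The lists of companion genes that follow were chosen with earlier results of these data known. They are given as counts, and none was tested as a set. Over all genes, day 3 over day 0 in siControl cells called 73.4%, 33.9% higher and 39.5% lower. Knockdown called 13.9% higher and 13.5% lower at day 0, 8.86% higher and 8.72% lower at day 1, and 23.1% higher and 21.6% lower at day 3.

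The enzymes that make the sugar nucleotides for hyaluronan did not move as one. Of 9 genes tested, 1 was higher and 5 were lower at day 3 than at day 0 in siControl cells, with a median of -0.14 beside -0.05 over all genes. Gfpt2, which commits fructose 6-phosphate to the hexosamine pathway, rose by 3.69 ± 0.13 to 15.8 ± 0.957 CPM, against 1.22 ± 0.103 CPM at day 0. Ugdh, which makes UDP-glucuronic acid, fell by 1.07 ± 0.04 to 220 ± 1.94 CPM, against 463 ± 12.1 CPM at day 0, and Uap1 fell by 0.38 ± 0.05. After knockdown, 0 of 9 were higher and 1 was lower at day 0, 1 was higher and 0 lower at day 1, and 2 were higher and 3 lower at day 3. Gnpnat1, which acetylates glucosamine 6-phosphate, was at 49.4 ± 10.4 CPM in siChst7 and 25.9 ± 1.49 CPM in siControl cells at day 3 (0.93 ± 0.10, edgeR adjusted p = 5.6e-07), and at 23.3 ± 1.55 CPM in siChst7 and 28.5 ± 1.86 CPM in siControl cells at day 0 (-0.28 ± 0.10, edgeR adjusted p = 0.0471).

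Genes of hyaluronan breakdown were mixed too. Of 8 tested, 3 were higher and 3 lower at day 3 than at day 0 in siControl cells. Hyal1, a lysosomal hyaluronidase, rose by 1.98 ± 0.14 to 10.4 ± 0.122 CPM, against 2.62 ± 0.444 CPM at day 0, while Hexa, the alpha subunit of a lysosomal hexosaminidase, fell by 0.63 ± 0.05. After knockdown, 2 were higher and 2 lower at day 0, where Tmem2, a cell surface hyaluronidase, was higher by 0.37 ± 0.07 and Cemip, which drives hyaluronan depolymerization, was lower (-0.33 ± 0.05). At day 1 edgeR called 0 of 8, with 1 at an unadjusted p below 0.05 and 0 by DESeq2. At day 3, 1 was higher and 4 were lower, with Hexa at -0.42 ± 0.05, Gusb at -0.37 ± 0.04 and Tmem2 at -0.32 ± 0.07.

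Among other hyaluronan-binding proteins, 8 of 18 genes were tested. In siControl cells 0 were higher and 6 were lower at day 3 than at day 0 (6 of 8 called, against 73.4% of all genes, with 39.5% lower), with a median of -0.67 beside -0.05 over all genes. Ptx3, the pentraxin that holds heavy chain-bearing hyaluronan together with TSG-6, fell by 4.44 ± 0.06 to 23.3 ± 0.688 CPM, against 505 ± 20.0 CPM at day 0. Layn, the hyaluronan receptor layilin, fell by 2.04 ± 0.07, and Itih2, a heavy chain of inter-alpha-inhibitor, fell by 3.46 ± 0.29. After knockdown, 2 were higher and 1 lower at day 0, 1 was higher and 1 lower at day 1, and 2 were higher and 1 lower at day 3. Ptx3 was lower in siChst7 cells at day 0 (-0.17 ± 0.05, edgeR adjusted p = 0.00974) and higher at day 1 (0.30 ± 0.05) and day 3 (0.69 ± 0.06, edgeR adjusted p = 1.25e-08). Its effect at day 3 exceeded that at day 0 by 0.85 ± 0.07 (edgeR adjusted p = 2.09e-08).

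Of 9 listed proteases that cut lecticans, 4 were tested. In siControl cells all 4 were higher at day 3 than at day 0 (33.9% of all genes), with a median of 0.91. Adamts4, an aggrecanase, rose by 2.42 ± 0.08 to 60.3 ± 0.821 CPM, against 11.3 ± 1.05 CPM at day 0. Of the 4 Timp genes, which encode tissue inhibitors of metalloproteinases, 3 were tested and all 3 were lower in siControl cells at day 3 than at day 0 (39.5% of all genes), with Timp1 at -2.32 ± 0.08 and a median of -0.85. After knockdown, Adamts5, another aggrecanase, was lower at all 3 days: it measured 37.9 ± 1.48 CPM in siChst7 and 80.6 ± 2.32 CPM in siControl cells at day 0, with differences of -1.09 ± 0.04, -0.74 ± 0.04 and -0.26 ± 0.04 at days 0, 1 and 3 (edgeR adjusted p = 7.92e-14, 8.2e-11 and 3.17e-05). Adamts1 was lower at day 0 (-0.49 ± 0.06) and higher at day 1 (0.34 ± 0.06) and day 3 (0.15 ± 0.06). For knockdown at day 3, DESeq2 called 2 of the 4 proteases, against 3 by edgeR. In counts, 1 protease was higher and 2 lower at day 0, 1 higher and 1 lower at day 1, and 1 higher and 2 lower at day 3, and among the inhibitors 0 were higher and 2 lower at day 0, with 1 higher and 1 lower at each of days 1 and 3.

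**Figure D5:**
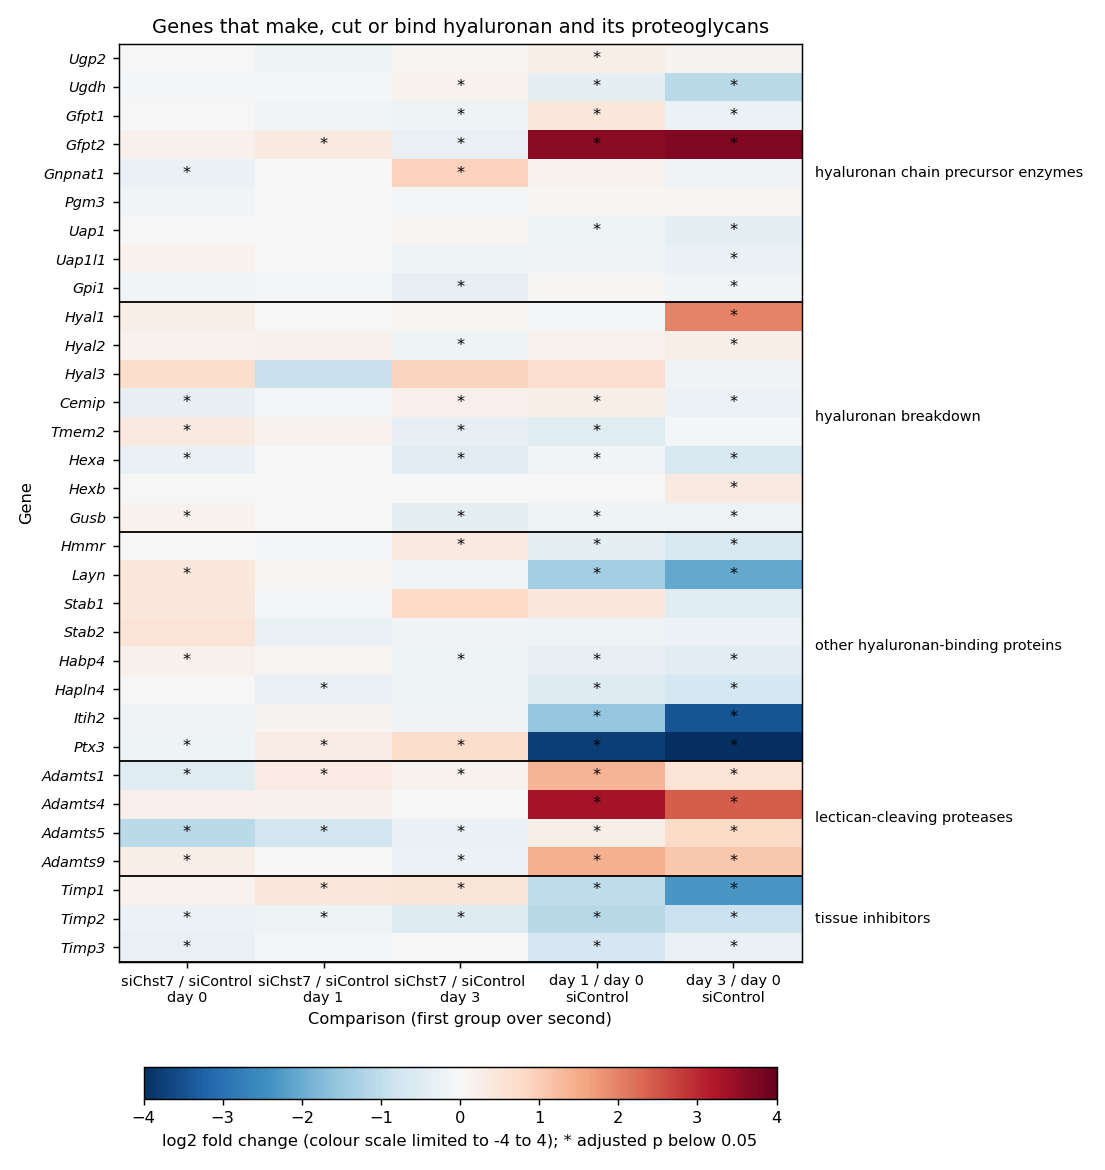
Log2 fold changes of 32 tested genes of hyaluronan precursor supply, breakdown and binding, of lectican-cleaving proteases and of their tissue inhibitors; columns are siChst7 over siControl at days 0, 1 and 3 and day 1 and day 3 over day 0 in siControl cells. Stars mark an edgeR adjusted p below 0.05 and the colour scale is limited to -4 to 4; Adamts5 is lower after knockdown on all 3 days and Ptx3 has the deepest fall with time.

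Of 15 other chondroitin sulfate proteoglycan genes 6 were tested. At day 3 over day 0, 0 were higher and 3 lower in siChst7 cells (37.8% of all genes lower), with a median of -0.57, and 0 were higher and 5 lower in siControl cells (39.5% lower), with a median of -1.22. In siControl cells Dcn, the small proteoglycan decorin, fell by 4.44 ± 0.13 to 7.78 ± 0.402 CPM, against 169 ± 3.38 CPM at day 0. After knockdown 1 was higher and 1 lower at day 0, 3 higher and 1 lower at day 1, and 2 higher and 2 lower at day 3, with Smc3, a cohesin subunit that is also listed as the core of a basement membrane proteoglycan, lower on each day (-0.34 ± 0.04, -0.46 ± 0.04 and -0.20 ± 0.04). Of the 16 enzymes of chondroitin chains, which include Chst7 itself, 14 were tested. After knockdown 3 were higher and 4 lower at day 0, 2 higher and 3 lower at day 1, and 0 higher and 7 lower at day 3, with a median of -0.25 at day 3 beside 0.01 over all genes. The 7 of 14 called at day 3 stand beside 44.7% of all genes called and 21.6% lower, and 1 of the 7 is Chst7, the target of the siRNA. The other day 3 decreases included the 4-O-sulfotransferases Chst12 (-0.50 ± 0.06) and Chst11 (-0.38 ± 0.05). The all-gene median at day 3 was -0.03 under RLE scaling and -0.05 under the stricter filter. Gene length correlated with the day 3 knockdown change at -0.33 (Spearman) over all genes tested, and its part in these decreases was not tested. For this list too, no result without single siChst7 day 3 libraries is given. Over time in siControl cells 5 were higher and 7 lower at day 3 than at day 0, with the 6-O-sulfotransferase Chst3 up by 3.24 ± 0.11.

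Inflammatory genes known to be induced along with Tnfaip6 and the Has genes were followed as a list of 10, of which 8 were tested. After knockdown 2 were higher and 2 lower at day 0, 6 were higher and 0 lower at day 1, and 6 were higher and 0 lower at day 3, with medians of 0.02, 0.46 and 0.78 beside 0.01 over all genes. Of all genes, 8.86% were higher at day 1 and 23.1% at day 3. Ptgs2, the inducible cyclooxygenase, was lower at day 0 (-0.42 ± 0.06) and higher at day 1 (0.66 ± 0.06) and day 3 (0.90 ± 0.06), where it measured 67.0 ± 5.74 CPM in siChst7 and 35.8 ± 2.29 CPM in siControl cells. The chemokine Ccl2 measured 66.8 ± 17.3 CPM in siChst7 and 16.3 ± 1.33 CPM in siControl cells at day 3 (2.03 ± 0.13). Over all genes tested, gene length correlated with the day 3 knockdown change at -0.33 (Spearman), and its part in these differences was not tested. No result without single siChst7 day 3 libraries is given for this list. With time in siControl cells all 8 were lower at day 3 than at day 0, against 39.5% of all genes, with a median of -4.14. In the same comparison Tnfaip6 stood at -0.81 ± 0.13 and Has2 at -4.75 ± 0.13. Ptx3 is also in the list of hyaluronan-binding proteins above.

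The genes whose course over the 18 libraries was most like that of each member are given as a description, by Pearson r of log2 CPM among 9939 genes with a mean of at least 5 CPM. The points share library, depth and day, so that any gene with a strong course in time will score high. Has2 was most like Bub1b (r = 0.996), Mmp3 (0.995) and Ifrd2 (0.995), Cspg4 like Zfpm1 (0.987), Shb (0.987) and Afdn (0.986), and Cd44 like Klf6 (0.971), Pdlim5 (0.944) and Senp5 (0.943). Tnfaip6, with its dip at day 1, was most like Phyhd1 (0.957), Lactb2 (0.952) and Cdh11 (0.952). Acan was most like Rab27a (0.944), Fam214a (0.936) and Arvcf (0.934), and Vcan like Cbr1 (0.891), Pcdhb17 (0.867) and Zdhhc16 (0.855). For the scarce Has3 the nearest were Ispd (0.798), Acaa1a (0.774) and Ss18 (0.768), and for Has1 they were Tmem121 (0.730), Igip (0.682) and Apobec3 (0.671).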

How the data were processed

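Poly-A RNA sequencing was analysed for 18 libraries in 6 groups of 3. The deposited table held raw counts, whole numbers that the authors had not normalized, for 24514 genes. Each column carries a library name, which a sample's description repeats, and 1 other column held gene lengths. HISAT2, Subread, featureCounts, DESeq2 and mm10 are named per the submitters' processing notes. Not given in the sources used here are whether reads were counted by strand, how multi-mapping reads were treated and which annotation was used.

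The count test was that of edgeR 4.0.16 (R 4.3.3), which loads limma 3.58.1. After filterByExpr (minimum count 10), 13802 genes remained. After TMM scaling, 1 quasi-likelihood model of the 6 groups took all 18 libraries, without covariates and with 12 residual degrees of freedom. It had a common dispersion of 0.00331 (biological coefficient of variation 5.75%). Tests were two-sided. Genes were called at a Benjamini-Hochberg adjusted p below 0.05 over all genes tested, in 12 comparisons. SE is the absolute log2 fold change over the square root of F. Intervals are at 95%, and those of summed counts cover counting error only. Scripts were tested on simulated data.

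Alternatives were RLE scaling, library totals, upper quartile scaling, DESeq2 1.42.0, no filter, a stricter filter (1 CPM in 3 libraries), only the groups compared, the replicate block and leaving out each library. The text names the 8 genes, Chst7, up to 3 called genes of smallest p per list and comparison, genes needed for a count, and the 3 genes most like each member (prior count 2). Cell type markers covered fibroblasts, cardiomyocytes, pericytes and smooth muscle, chondrocytes, macrophages and leukocytes, endothelial cells, epithelial cells and adipocytes. Members and lists were chosen with earlier results of these data known. Figures were drawn with matplotlib 3.10.9 in Python 3.11.15. Coordinates and promoters are RefSeq GRCm38.p6, 1-based.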

Additional observations from a re-analysis of the deposited data

Results flagged for a closer look

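Tnfaip6 was the gene whose knockdown effect differed between days in a test of that difference. The effect of siChst7 over siControl was larger at day 3 than at day 1 by 0.77 ± 0.21 on the log2 scale (SE, edgeR adjusted p = 0.01). It was larger at day 3 than at day 0 by 0.96 ± 0.18 (edgeR adjusted p = 0.000229), with the siChst7 libraries all below the siControl libraries at day 0 and all above them at day 3. The day 0 decrease lost its call without siControl day 0 replicate 3 (edgeR adjusted p = 0.076) or siChst7 day 0 replicate 2 (0.0503). Such changes were common: 28.4% of all genes tested were called for day 3 minus day 1 and 38.8% for day 3 minus day 0.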

How the results depend on the processing

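Of 1474 alternative values of 96 results on the 8 genes, 1366 kept direction and side of the threshold, 47 were no longer called, 35 became called and 26 changed sign, and the causes were not tested. Under library totals and upper quartile scaling, the day 0 knockdown differences of Has3 and Cspg4 turned to 0.05 and 0.01 each, and under library totals Cd44 at day 3 over day 0 in siControl cells turned to 0.05. With 1 library left out at a time, signs changed within these log2 ranges: Has3 -0.15 to 0.19, Acan -0.45 to 1.03 and Cspg4 -0.05 to 0.02 for knockdown at day 0, Acan -1.29 to 0.01 at day 1 and Vcan -0.02 to 0.31 at day 3. In siControl cells Has1 ran from -0.02 to 0.70 at day 1 over day 0, and Has3 from -0.10 to 0.31 at day 3 over day 1 and from -0.32 to 0.02 at day 3 over day 0. In siChst7 cells at day 3 over day 0, Has1 ran from -0.49 to 0.12 and Cd44 from -0.02 to 0.05. Among differences of knockdown effects, Vcan ran from -0.17 to 0.05 for day 1 minus day 0, and Acan from -0.34 to 0.95 for day 3 minus day 1 and from -1.36 to 0.12 for day 3 minus day 0. None of these values with changed sign was called by edgeR.

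With only the compared libraries, knockdown at day 1 called 3853 genes, against 2426 in the fit of all libraries, and 2 of the 8 genes, as DESeq2 also did. At day 3, and for the day 3 minus day 1 effect, 2 of the 8 were called under RLE scaling, library totals, no filter, the stricter filter and DESeq2, and for the day 1 minus day 0 effect DESeq2 called 1. With 1 library left out, the 8 genes gave 2 to 4, 1 to 2 and 1 to 3 calls for knockdown at days 0, 1 and 3. They gave 3 to 5 calls for day 1 over day 0 in siControl cells and 3 to 5 for day 3 over day 0 in siChst7 cells. For the effects of day 1 minus day 0, day 3 minus day 1 and day 3 minus day 0 they gave 0 to 1, 1 to 2 and 1 to 2 calls. Scaling by library totals moved the all-gene median from -0.05 to 0.10 at day 3 over each earlier day in siControl cells, from 0.01 to 0.12 at day 3 over day 1 in siChst7 cells and from 0.01 to -0.10 for the day 3 minus day 0 effect. It set the share of calls that were higher to 69.4% against 50.6% (knockdown, day 0), 65.0% against 41.4% (siControl, day 3 over day 1, with 57.3% under upper quartile scaling), 57.8% against 46.2% (siControl, day 3 over day 0), 60.9% against 48.6% (siChst7, day 3 over day 1), 30.2% against 53.0% and 35.7% against 53.3% (effects of day 1 and of day 3 minus day 0). Without a filter it was 42.8% against 53.8% for the day 3 minus day 1 effect. For knockdown at day 3 the reported 3182 higher and 2983 lower genes became 2766 and 3739 under RLE scaling, 2689 and 3714 under library totals, 2970 and 3266 under upper quartile scaling, 2818 and 3783 by DESeq2, 2719 and 3764 under the stricter filter, and 2687 and 3585 where genes were left unfiltered.

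No pairing by replicate number was seen, since libraries with the same number had deviations that correlated at -0.07 to 0.06. This check cannot exclude that they shared a plate or harvest. With the replicate number as a block, 3656, 2303 and 6024 genes were called for knockdown at days 0, 1 and 3, with 4, 1 and 1 of the 8 genes, and 1 call on the 8 genes was lost in all 12 comparisons, Vcan at day 1 over day 0 in siControl cells (0.44, edgeR adjusted p = 0.0575). Depth limits Has1, Has3 and Acan, whose counts per library were often under 50.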

Other observations

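Endothelial, adipocyte and epithelial markers, which the report does not set beside a gene, were low. Summed endothelial markers were at 18.7 to 22 CPM in siChst7 and 12.6 to 14.7 CPM in siControl libraries at day 0, and at 1.51 to 1.89 CPM in siChst7 and 1.19 to 1.63 CPM in siControl libraries at day 3. Summed adipocyte markers were at 24.3 to 27.9 CPM in siChst7 and 17.7 to 19.9 CPM in siControl libraries at day 0, and at 3.28 to 4.30 CPM in siChst7 and 3.05 to 3.39 CPM in siControl libraries at day 3. Summed epithelial markers did not exceed 3.61 CPM in any library.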
